A study of Gallus gallus with 6 samples.

Results

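Transporters that carry sugars, amino acids and monocarboxylates such as lactate across membranes were examined in chicken ovarian cancer cells. They were chosen by name, as the genes of the solute carrier families SLC1, SLC2, SLC3, SLC5, SLC6, SLC7, SLC16, SLC36, SLC38 and SLC43. Of 16963 genes in the deposited tables, 79 carry such a name, and the 66 with at least 10 estimated counts over all libraries are described here. One of them, SLC7A6OS, is named for its position opposite SLC7A6 and is not itself known as a carrier. Several others carry vitamins or other solutes rather than sugars, amino acids or monocarboxylates. The name rule used no measured value except the count minimum. SLC6A5, with 9 counts, SLC1A3 and SLC7A10, with 8 each, and SLC5A12, with 7, fell just outside that minimum, and SLC5A9, with 13, lay just inside it.

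The cells were grown from ascites of hens with ovarian adenocarcinoma and sorted by fluorescence for the activity of aldehyde dehydrogenase (ALDH), an enzyme trait that is widely used to enrich stem-like tumour cells. The ALDH+ group and the ALDH- group each hold 3 libraries, one per primary line, and values of the 3 libraries of a group stand in the order C27, C29, C30. The cells of both groups were grown to confluence on gelatin-coated flasks and lifted with trypsin, and no drug, transgene or other treatment is named for either. Each line is a single culture, so the spread between libraries is a spread between 3 cultures. How the sort gates were set is not given in the sources used here.

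Cells take up glucose mainly through the facilitative SLC2 carriers (GLUT proteins), which move sugar down its gradient, while SLC5 carriers use the sodium gradient to concentrate sugars, vitamins and other small solutes. Lactate leaves or enters with a proton through SLC16 carriers (MCT proteins), some of which need a membrane partner such as basigin (BSG) or embigin (EMB). Amino acids use many routes: SLC7 carriers for cationic and large neutral amino acids, of which the light chains pair with an SLC3 heavy chain, SLC1 for glutamate and small neutral amino acids, sodium-coupled SLC6 and SLC38, proton-coupled SLC36, and SLC43. Tumour cells often carry high levels of GLUT1 (SLC2A1), MCT1 (SLC16A1), MCT4 (SLC16A3) and LAT1 (SLC7A5).

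Libraries held 22170788 to 26747453 estimated counts, and carrier genes took 0.245 to 0.281% of gene counts in ALDH+ libraries and 0.215 to 0.278% in ALDH- libraries. Macrophage and monocyte markers separated the fractions, as did heterophil and mast cell markers, and 5 of 8 tested lymphocyte markers did so. The macrophage and monocyte markers named in the files summed to 201.9 to 401.8 CPM (counts scaled by TMM-adjusted library size) in ALDH+ libraries and 6126 to 12040 CPM in ALDH- libraries, and 18 of 19 tested were lower in ALDH+ cells. No marker of that list was without counts, and MRC1, at a mean of 0.245 CPM in ALDH+ and 0.326 CPM in ALDH- libraries, and CD86 were too low to test. Heterophil and mast cell markers summed to 28.0 to 56.7 CPM in ALDH+ and 674.1 to 6306 CPM in ALDH- libraries, and 4 of 4 tested were lower in ALDH+ cells. CATHL1, CATHL2 and HDC of that list were not tested, and CATHL2 had no counts. Of 8 tested lymphocyte markers, 5 were lower in ALDH+ cells in edgeR (PTPRC, IL2RG, IKZF1, BLK and CD5). The others did not pass: CD3E (log2 1.289, adjusted p = 0.197, higher in ALDH+ without overlap), LCK (log2 -0.193, adjusted p = 0.839) and CD3D (log2 -0.585, adjusted p = 0.531). The lymphocyte markers CD4, CD8A, CD79B, ZAP70, PAX5 and RAG1 had too few counts to test. The 12 fibroblast markers summed to 20740 to 50690 CPM in ALDH+ and 13800 to 36630 CPM in ALDH- libraries, and 0 of 11 tested passed in edgeR (4 rose in the line-blocked fit described below). Of 4 tested epithelial markers, CDH1 (E-cadherin) was lower in ALDH+ (log2 -4.08, adjusted p = 0.0471 in edgeR), KRT18 was higher in the line-blocked fit (log2 1.25, adjusted p = 0.0224), and KRT7 and EPCAM passed in neither. KRT7 stood at 1078 to 2940 CPM in ALDH+ and 629.1 to 2294 CPM in ALDH- libraries, while EPCAM was at or below 1.82 CPM throughout. Of 4 tested ovarian carcinoma markers 0 passed without the block, and WT1 (log2 1.497, adjusted p = 0.0331) and PGR (log2 1.19, adjusted p = 0.0414) were higher in the line-blocked fit. No gene in the data was named PAX8 or MUC16. In bulk RNA, fewer cells of a type and less RNA per cell cannot be told apart. The part of leukocyte RNA in any carrier result below was not tested, apart from the values given.

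Levels of different genes are compared in TPM, in which transcript counts are scaled by length and library. On that scale 23 of the 66 genes averaged at least 10 TPM over the 6 libraries, 19 lay between 1 and 10 TPM, and 24 lay under 1 TPM. The 10 most abundant held 66.6% of the summed TPM of all 66. SLC2A14, which the files name after a human relative of the neuronal glucose carrier GLUT3, had the highest mean, with 130.3, 118.8 and 196.2 TPM in ALDH+ libraries and 112.4, 93.4 and 108.7 TPM in ALDH- libraries. Second came SLC16A1, which encodes the lactate carrier MCT1, with 119.1, 82.5 and 127.6 TPM in ALDH+ and 74.9, 75.2 and 48.1 TPM in ALDH- libraries. GLUT1 (SLC2A1) had 99.1, 80.7 and 73.1 TPM in ALDH+ and 64.6, 48.6 and 31.4 TPM in ALDH- libraries. These were the main glucose and lactate carriers by level, and the order of neighbours was not fixed beyond the spread between lines.

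Amino acid carriers filled most of the other high places. SLC43A2 (LAT4, a facilitative carrier of branched-chain amino acids) averaged 62.2 ± 28.3 TPM in ALDH+ and 82.0 ± 13.3 TPM in ALDH- libraries (SD, n = 3 each). SLC38A2 (SNAT2, a sodium-coupled carrier of small neutral amino acids) averaged 92.4 ± 19.5 TPM in ALDH+ and 49.2 ± 27.8 TPM in ALDH- libraries, and SLC38A10 averaged 60.3 ± 20.7 and 28.7 ± 15.4 TPM in ALDH+ and ALDH- libraries. Also among the 10 were SLC7A3, a cationic amino acid carrier, at 53.1 ± 17.4 TPM in ALDH+ and 49.8 ± 14.97 TPM in ALDH- libraries, and SLC1A6, a glutamate carrier known in mammals from cerebellar Purkinje cells (EAAT4), at 51.9 ± 35.4 and 47.7 ± 26.5 TPM. The glucose carrier SLC2A6 (GLUT6), at 54.3 ± 39.1 TPM in ALDH+ and 58.7 ± 20.5 TPM in ALDH- libraries, and LAT1 (SLC7A5), at 34.0 ± 14.4 and 64.6 ± 49.7 TPM, were the others. Most SDs were large against the gaps between these means. TPM was on the whole higher in ALDH+ libraries, since the median log2 change of all genes on the log2(TPM + 1) scale was 0.36, and the fractions are therefore compared on counts below.

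**Figure D1:**
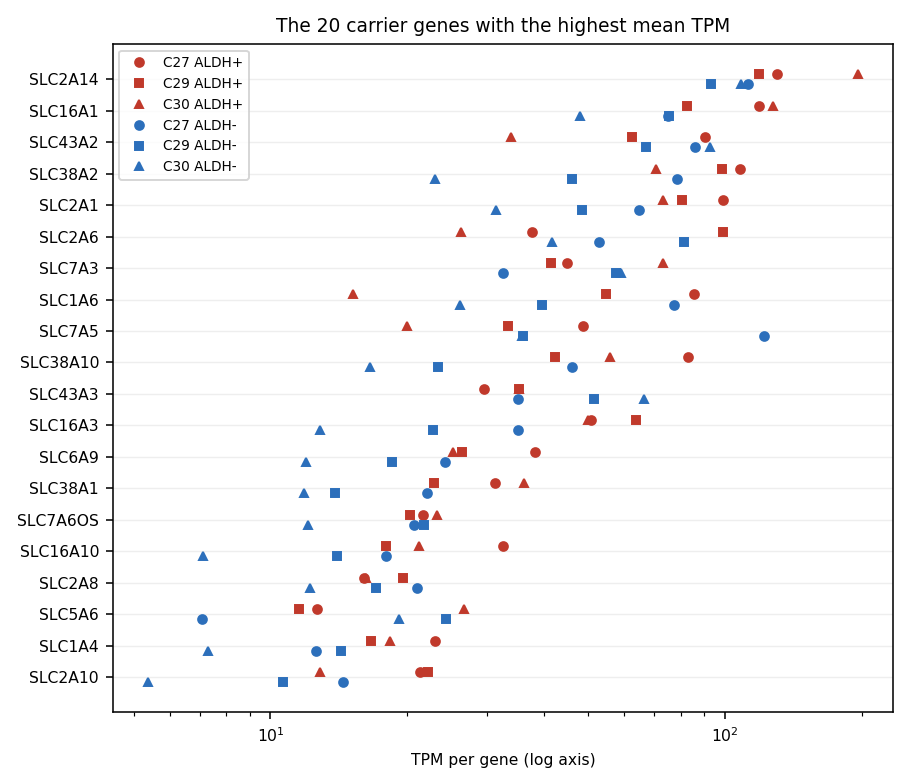
TPM per gene (log axis) in each of the 6 libraries for the 20 carrier genes with the highest mean, ALDH+ in red above ALDH- in blue, with the symbol shape giving the line. SLC2A14 lies between 118.8 and 196.2 TPM in ALDH+ and between 93.4 and 112.4 TPM in ALDH- libraries, and the points of most other genes interleave.

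The share of carriers that differed between the fractions lay near that of all genes, without and with the line as block. The test was edgeR's quasi-likelihood test on counts summed per gene and scaled by TMM (trimmed mean of M values) factors, with p adjusted over all 12811 tested genes (Benjamini-Hochberg) and 0.05 as the threshold. Of the 66 genes, 50 passed the filter on low counts. Among these, 0 were higher and 2 were lower in ALDH+ cells, SLC16A7 and SLC38A6, which is 4.0% of those tested against 6.14% of all genes (0.835% higher and 5.3% lower). At an unadjusted p under 0.05 there were 4 higher and 8 lower, beside 20.6% of all genes. DESeq2, run on all 66 carriers, called 1 higher and 4 lower (SLC16A7, SLC38A6, SLC2A5 and SLC2A9), where it called 12.2% of all genes (4.65% higher and 7.51% lower). On the 50 carriers limma-voom called 0 higher and 3 lower, where it called 6.0% of all genes (0.898% higher and 5.1% lower). Without the filter on low counts edgeR tested all 66 carriers and called 0 higher and 3 lower (SLC16A7, SLC38A6 and SLC2A9), against 5.41% of all genes (0.85% higher and 4.56% lower).

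Each culture gave both an ALDH+ and an ALDH- library. When edgeR compared them within each line (the line-blocked fit), it called 2 carriers higher (among them SLC7A1) and 5 lower (SLC16A7, SLC38A6, SLC2A5, SLC7A5 and SLC43A3) in ALDH+ cells. This is 14% of those tested, against 13.5% of all genes (5.92% higher and 7.6% lower), so the share of carriers called lay near that of the whole transcriptome in both fits. The median log2 change was 0.10 over the 50 tested carriers and 0.00 over all tested genes, with 26 carriers above 0 and 24 below. In 15 of the 50 the ALDH+ and ALDH- libraries did not overlap, 6 higher and 9 lower, or 30% against 25.8% of all genes (11.2% higher and 14.6% lower). The sign was the same in all 3 lines in 28, 17 higher and 11 lower, or 56% against 56.1% of all genes (28.4% higher and 27.7% lower). The macrophage markers had a median log2 change of -5.18 beside this carrier median of 0.10. Scaling that set the median of the fibroblast list to 0 took the carrier median to -0.72, and that of all genes to -0.81. Under it 0 of 50 carriers were called higher and 14 lower, against 42.9% of all genes (0.258% higher and 42.7% lower).

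**Figure D2:**
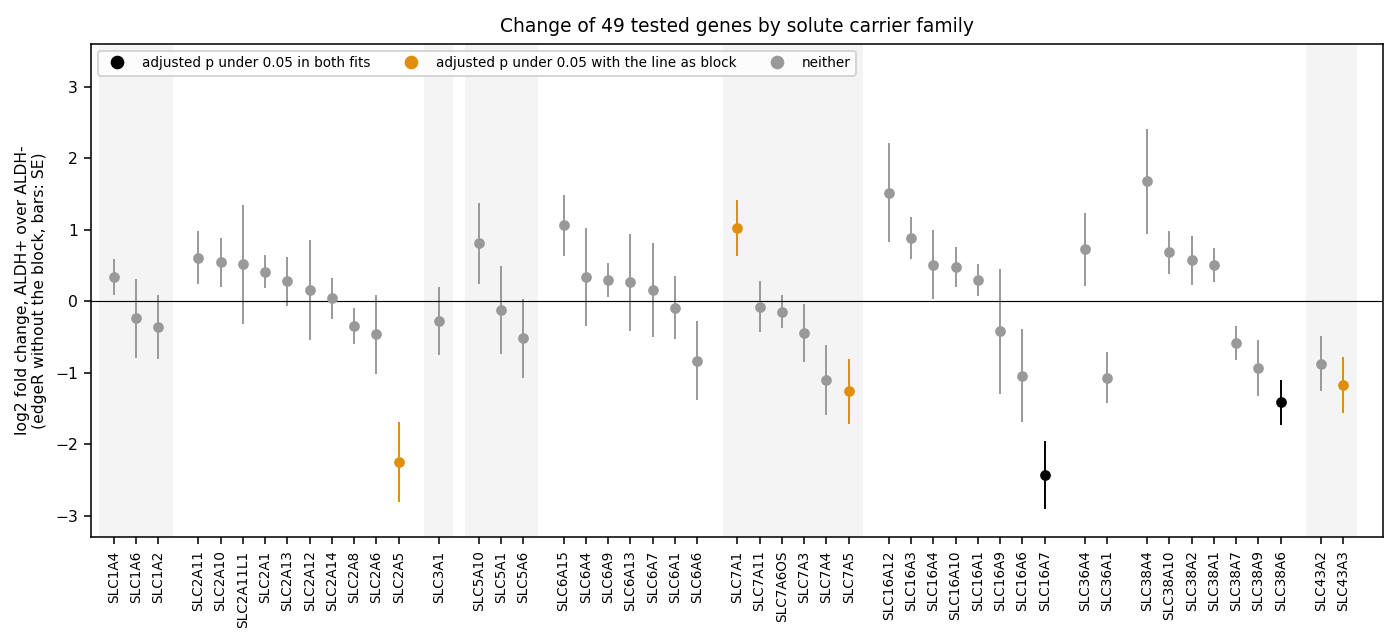
Log2 fold change (ALDH+ over ALDH-) with its SE for 49 of the 50 tested genes, from the edgeR fit without the block, grouped by family and ordered within it. Most points lie within about 1 of 0 in both directions, with SLC16A7, SLC2A5 and SLC38A6 lowest.

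Sugar carriers are taken first. The family SLC2 had 12 measured genes, of which 10 were tested, and 0 passed in either direction without the block (7 had log2 changes above 0 and 3 below). The fructose carrier SLC2A5 (GLUT5) had 5.00, 1.54 and 1.17 CPM in ALDH+ libraries, against 12.4, 11.98 and 12.7 CPM in the ALDH- libraries. All 3 ALDH- libraries lay close together and above every ALDH+ library, with the ALDH+ library of C27 highest of its group. Its log2 change was -2.26 (SE 0.56, adjusted p = 0.0572 in edgeR), and in the line-blocked fit it fell by 2.53 (SE 0.46, adjusted p = 0.0151). Without the block SLC2A5 was called in DESeq2 (adjusted p = 0.00158), in limma-voom (0.0235) and with fibroblast scaling in edgeR (0.00743). The other scalings, no filter and limma on log2 TPM gave no call (adjusted p from 0.0653 to 0.0908). In the edgeR fit without the block it was also called when the ALDH+ library of C27 was left out (log2 -3.17, adjusted p = 0.01). Leaving out any other single library gave no call there (adjusted p from 0.0795 to 0.186). In the line-blocked fit it kept its call when C27, C29 or C30 was left out (adjusted p from 0.00483 to 0.0143), the only one of the 7 carriers called there for which that was so.

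SLC2A9, a urate carrier in mammals, was too low for the test, with 2, 1 and 2 counts in ALDH+ and 46, 16 and 9 counts in ALDH- libraries. Every ALDH- library exceeded every ALDH+ library. Without the filter on low counts its log2 change was -3.77 (SE 0.80, adjusted p = 0.0325 in edgeR), and it was named after its values were seen. The authors' deposited table, which tests each transcript, lists 3 of 77 carrier transcripts with a false discovery rate under 0.05, against 9.12% of all transcripts. These belong to SLC38A6 (log2 -1.4), SLC2A5 (-2.2) and SLC2A9 (-3.9), all lower in ALDH+.

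The abundant glucose carriers gave no call. SLC2A14 had 305.0, 352.1 and 495.4 CPM in ALDH+ and 323.3, 325.0 and 474.5 CPM in ALDH- libraries (log2 0.04, SE 0.28, adjusted p = 0.957 in edgeR), with C30 highest in both fractions. SLC2A1 had 184.0, 190.4 and 146.5 CPM in ALDH+ and 147.7, 134.4 and 108.9 CPM in ALDH- libraries (log2 0.41, SE 0.23, adjusted p = 0.349). GLUT1 was higher in the ALDH+ library of all 3 lines, by 0.32, 0.50 and 0.43 on the log2 scale, the groups overlapped by a narrow margin, and fibroblast scaling turned the log2 change to -0.40. SLC2A6, known in mouse macrophages as a lysosomal GLUT, differed more by line, with 45.8, 153.0 and 34.5 CPM in ALDH+ and 78.8, 147.7 and 95.0 CPM in ALDH- libraries (log2 -0.46, SE 0.55, adjusted p = 0.671). C29 had the highest SLC2A6 level in both fractions. SLC2A12 stayed under 5 CPM in every library and was highest in C27 and lowest in C30 in both fractions (4.33, 2.44 and 0.686 CPM in ALDH+, 3.52, 2.07 and 1.10 CPM in ALDH-).

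Of the sodium-coupled family SLC5, 3 of 6 measured genes were tested and 0 passed. SLC5A10, which carries mannose and fructose in mammalian kidney (SGLT5), had 3.02, 6.64 and 2.71 CPM in ALDH+ and 1.52, 4.04 and 1.495 CPM in ALDH- libraries. Within lines the difference was 0.95, 0.70 and 0.82 on the log2 scale, and it did not pass (log2 0.81, SE 0.57, adjusted p = 0.463 in edgeR, and 0.115 in the line-blocked fit). The multivitamin carrier SLC5A6 (log2 -0.52) and the intestinal glucose carrier SLC5A1 (log2 -0.12) were the other tested members.

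Among monocarboxylate carriers was the lowest log2 change of all tested carriers, that of SLC16A7. Of 11 measured SLC16 genes 9 were tested, and 1 fell (6 had log2 changes above 0 and 3 below). SLC16A7 (MCT2, a high-affinity pyruvate and lactate carrier) had 0.839, 0.452 and 0.767 CPM in ALDH+ libraries, against 5.07, 3.49 and 2.69 CPM in the ALDH- libraries. The groups did not overlap, and the level was low in all libraries. It fell by 2.44 on the log2 scale (SE 0.47, adjusted p = 0.0208 in edgeR), and by 2.43 with the block (adjusted p = 0.0102). The call ended when any single library other than the ALDH- library of C30 was left out (adjusted p from 0.0502 to 0.0745), and in the line-blocked fit when C27 was left out (0.0612). On the log2(TPM + 1) scale with limma its adjusted p was 0.111.

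SLC16A3, which encodes the lactate exporter MCT4 of glycolytic cells, had 96.9, 154.2 and 103.4 CPM in ALDH+ and 82.3, 64.8 and 45.7 CPM in ALDH- libraries, without overlap. It did not pass (log2 0.88, SE 0.29, adjusted p = 0.141, and 0.0655 with the block), and its within-line log2 difference was 0.24 in C27, against 1.25 in C29 and 1.18 in C30. MCT1 (SLC16A1) had 282.9, 248.4 and 327.1 CPM in ALDH+ and 218.6, 265.7 and 213.1 CPM in ALDH- libraries (log2 0.30, SE 0.23, adjusted p = 0.489, and log2 -0.52 with fibroblast scaling). SLC16A12, a creatine carrier in mammals, had 1.28, 2.44 and 1.01 CPM in ALDH+ and 0.379, 1.06 and 0.199 CPM in ALDH- libraries (log2 1.52, SE 0.69, adjusted p = 0.262, and 0.0555 with the block). In the line-blocked fit SLC16A3 and SLC16A12 were called with upper quartile factors or library size only, and not with RLE size factors.

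**Figure D3:**
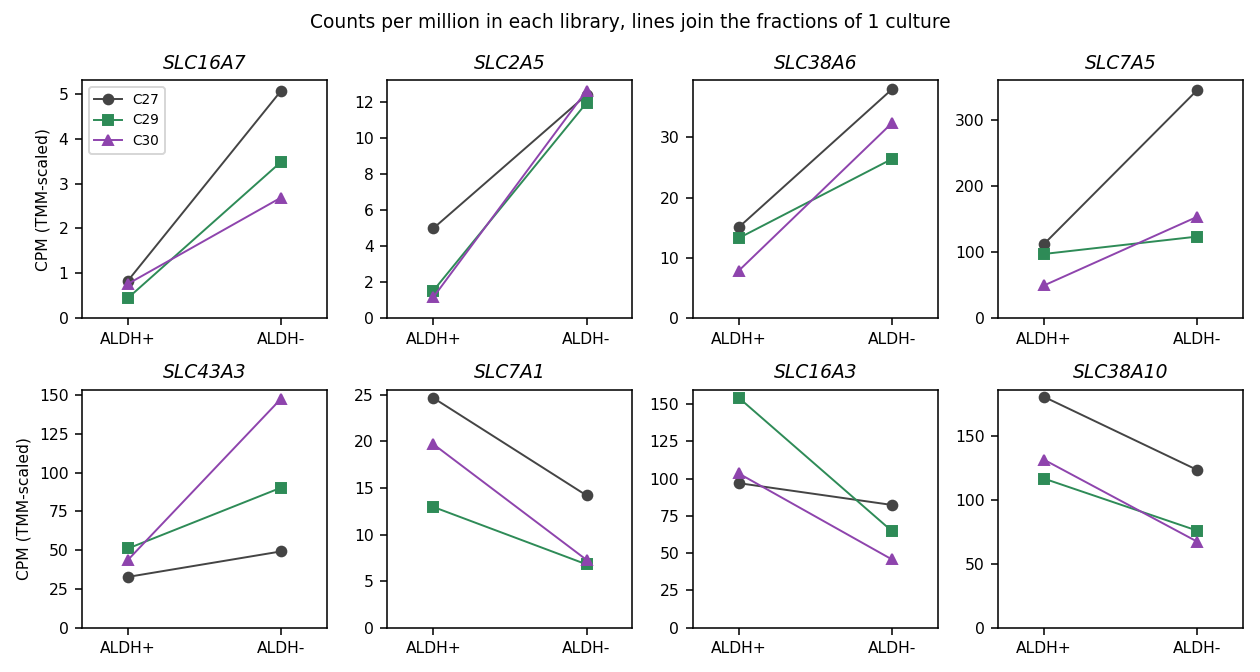
CPM (TMM-scaled) of 6 carriers called in the line-blocked fit, and of SLC16A3 and SLC38A10, in the ALDH+ library (left) and ALDH- library (right) of each line. Lines join the 2 fractions of a culture: SLC16A7, SLC2A5, SLC38A6, SLC7A5 and SLC43A3 are lower in ALDH+ in 3 of 3 lines, and SLC7A1, SLC16A3 and SLC38A10 are higher in 3 of 3.

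Of the 9 measured SLC7 genes 6 were tested, 0 passed without the block, and in the line-blocked fit SLC7A1 rose and SLC7A5 fell. SLC7A5 (LAT1, the carrier of leucine and other large neutral amino acids) had 112.5, 97.3 and 49.7 CPM in ALDH+ libraries, against 345.5, 123.6 and 153.6 CPM in the ALDH- libraries. Each ALDH+ library lay below each ALDH- library, and the ALDH- library of C27 stood highest. The log2 change was -1.26 (SE 0.46, adjusted p = 0.168 in edgeR), and with the block it fell by 1.20 (SE 0.31, adjusted p = 0.0445), with log2 differences of -1.62, -0.34 and -1.63 within C27, C29 and C30. SLC7A1 (CAT1, the ubiquitous arginine and lysine carrier) had 24.7, 13.0 and 19.7 CPM in ALDH+ and 14.2, 6.79 and 7.28 CPM in ALDH- libraries. The groups overlapped, since the ALDH- library of C27 exceeded the ALDH+ library of C29, but the ALDH+ library was the higher one in each line, by 0.79, 0.92 and 1.43 on the log2 scale. The log2 change was 1.02 (SE 0.39, adjusted p = 0.194), and with the block it rose by 1.05 (SE 0.25, adjusted p = 0.0347). The calls of SLC7A5 and SLC7A1 with the block held without C29 and ended without C27 (adjusted p = 0.212 and adjusted p = 0.115) or C30 (0.0898 and 0.101). That of SLC7A5 also ended in the line-blocked fit with RLE size factors (adjusted p = 0.0545) or upper quartile factors (0.0547).

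SLC7A3, the other abundant cationic carrier, had 87.1, 104.5 and 160.2 CPM in ALDH+ and 79.0, 173.6 and 225.3 CPM in ALDH- libraries (log2 -0.44, SE 0.41, adjusted p = 0.574 in edgeR), and was higher in ALDH+ in C27 and lower in C29 and C30. SLC7A4, whose substrate is not settled, was low, with 0.705, 0.542 and 1.29 CPM in ALDH+ and 1.89, 1.47 and 2.09 CPM in ALDH- libraries, without overlap (log2 -1.10, SE 0.49, adjusted p = 0.254). SLC7A11, the cystine and glutamate exchanger xCT, was named after its values were seen and had a log2 change of -0.08 (SE 0.35, adjusted p = 0.925). The heavy chain gene SLC3A1 was the one SLC3 gene measured, at 2.82, 2.39 and 2.46 CPM in ALDH+ and 4.05, 3.86 and 1.40 CPM in ALDH- libraries (log2 -0.28, SE 0.48, adjusted p = 0.779). No gene in the data was named SLC3A2, the heavy chain with which LAT1 pairs.

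The sodium-coupled SLC38 carriers divided by member. Each of the 7 tested had the same sign in all 3 lines, 4 higher and 3 lower in ALDH+, against 56.1% of all genes. That share was 100% also in SLC36 and SLC43, with 2 tested genes each, and 0% in SLC1, with 3. SLC38A6 (SNAT6) had 15.1, 13.3 and 7.87 CPM in ALDH+ libraries, against 37.9, 26.4 and 32.3 CPM in the ALDH- libraries. The groups did not overlap, and it fell by 1.42 on the log2 scale (SE 0.32, adjusted p = 0.0369 in edgeR), or by 1.45 in the line-blocked fit (adjusted p = 0.0165). Its call without the block ended when any one of the 6 libraries was left out (adjusted p from 0.0723 to 0.143), and with upper quartile factors (log2 -1.30, adjusted p = 0.0646) or library size only (log2 -1.25, adjusted p = 0.0822). On the log2(TPM + 1) scale with limma its adjusted p was 0.164. The lysosomal arginine sensor SLC38A9, which signals amino acid supply to mTORC1, had 3.76, 1.81 and 2.87 CPM in ALDH+ and 5.68, 5.09 and 5.43 CPM in ALDH- libraries, without overlap (log2 -0.94, SE 0.39, adjusted p = 0.224, and 0.0881 with the block).

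On the other side, SLC38A2 had 325.5, 378.2 and 229.7 CPM in ALDH+ and 291.1, 207.3 and 129.7 CPM in ALDH- libraries (log2 0.57, SE 0.34, adjusted p = 0.392 in edgeR). SLC38A10 had 180.9, 116.8 and 131.6 CPM in ALDH+ and 123.6, 76.0 and 67.4 CPM in ALDH- libraries (log2 0.69, SE 0.30, adjusted p = 0.248, and 0.0604 with the block, where RLE, upper quartile or library-size scaling brought it to 0.0366 to 0.0466). In both genes the groups overlapped through the ALDH- library of C27. With the scaling on fibroblast markers the log2 changes of SLC38A10, SLC38A2 and SLC38A1 turned to -0.13, -0.24 and -0.31, while that of SLC7A1 was 0.21. SLC38A4, singled out after its values were seen, had the highest log2 change of all tested carriers (1.68, SE 0.73, adjusted p = 0.245), at 0.436, 0.452 and 1.29 CPM in ALDH+ and 0.114, 0.413 and 0.149 CPM in ALDH- libraries. The proton-coupled lysosomal carrier SLC36A1 (PAT1) had 14.9, 14.6 and 13.0 CPM in ALDH+ and 16.7, 29.97 and 42.9 CPM in ALDH- libraries (log2 -1.07, SE 0.35, adjusted p = 0.137). Its ALDH+ libraries were nearly level and its ALDH- libraries were not, and the within-line log2 differences were -0.16 in C27, -1.03 in C29 and -1.71 in C30. Without the block SLC36A1 was called when the ALDH- library of C27 was left out (adjusted p = 0.0314 in edgeR), and not when any other library was (0.23 to 0.5).

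Both measured SLC43 genes were lower in the ALDH+ library of all 3 lines, as were 27.7% of all genes. SLC43A3, a purine nucleobase carrier in human cells, had 32.7, 51.0 and 43.7 CPM in ALDH+ and 49.2, 90.3 and 147.7 CPM in ALDH- libraries. The ALDH+ library of C29 lay above the ALDH- library of C27, so the groups overlapped. The log2 change was -1.17 (SE 0.40, adjusted p = 0.142 in edgeR), and with the block it fell by 1.05 (SE 0.27, adjusted p = 0.0455), a call that ended without C27 (0.0853) or C30 (0.0994), and with RLE size factors (0.0583) or upper quartile factors (0.0508). Without the block SLC43A3 was called when the ALDH- library of C27 was left out (adjusted p = 0.0304), and not when any other library was (0.193 to 0.497). SLC43A2 had 186.4, 163.1 and 75.1 CPM in ALDH+ and 218.1, 205.6 and 356.8 CPM in ALDH- libraries, without overlap (log2 -0.88, SE 0.38, adjusted p = 0.247). Its within-line log2 difference was -0.23 in C27 and -0.33 in C29, against -2.25 in C30.

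**Figure D4:**
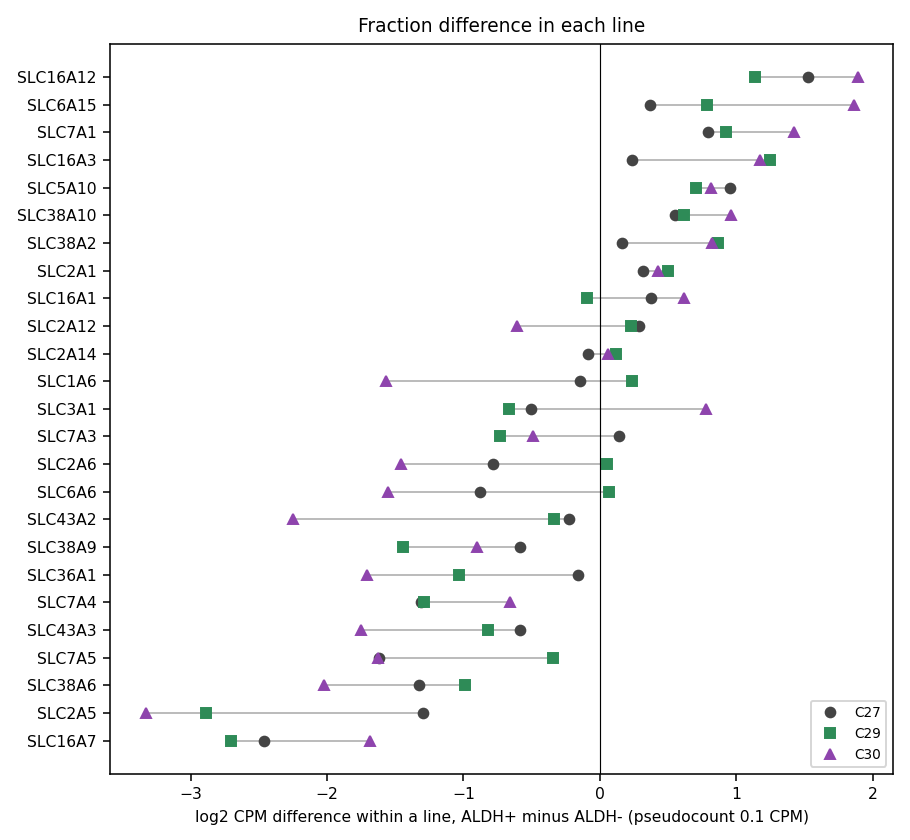
Log2 CPM difference (ALDH+ minus ALDH-, pseudocount 0.1 CPM) within C27, C29 and C30 for 25 carriers chosen by rule, in order of their log2 fold change. The lines lie on one side of 0 for 17 of the 25, against 56.1% of all tested genes. The rule takes the 8 of lowest line-blocked p in each direction, which favours such agreement, so this count is no separate result. C30 lies farthest from 0 for many of these genes, among them SLC43A2, SLC1A6, SLC36A1, SLC2A5, SLC38A6 and SLC7A1. For others it does not: C29 lies farthest out for SLC16A7 and SLC16A3.

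Glutamate and neurotransmitter-type carriers gave no call in either fit. Of 5 measured SLC1 genes 3 were tested, and of 10 SLC6 genes 7. SLC1A6 had 173.5, 140.2 and 33.2 CPM in ALDH+ and 192.0, 119.2 and 98.4 CPM in ALDH- libraries (log2 -0.24, SE 0.55, adjusted p = 0.838 in edgeR), with the ALDH+ library of C30 far below the others. The taurine carrier SLC6A6 had 26.0, 13.7 and 8.20 CPM in ALDH+ and 47.8, 13.0 and 24.3 CPM in ALDH- libraries (log2 -0.83, SE 0.56, adjusted p = 0.44). SLC6A15, a neutral amino acid carrier known from brain, had 5.20, 10.2 and 11.9 CPM in ALDH+ and 4.01, 5.88 and 3.19 CPM in ALDH- libraries (log2 1.06, SE 0.42, adjusted p = 0.21).

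The 24 tested genes not named by the rule had log2 changes from -1.05 to 1.68 with adjusted p values from 0.21 to 0.932 in edgeR. The 16 measured genes too low to test had 13 to 76 counts in all and mean levels of 0.0532 to 0.471 TPM. They were SLC1A1, SLC1A7, SLC2A2, SLC2A9, SLC5A7, SLC5A9, SLC5A11, SLC6A2, SLC6A12, SLC6A19, SLC7A2, SLC7A9, SLC7A14, SLC16A5, SLC16A8 and SLC38A3. Among these SLC7A14 had 19, 5 and 0 counts in ALDH+ libraries and 0 in each ALDH- library, where a count of 0 allows up to 3 counts per library. It was singled out after its values were seen, and its adjusted p was 0.199 without the filter on low counts (edgeR).

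No carrier differed between the lines after adjustment. An edgeR test of both line terms, fraction included as a covariate, called 0 of 50 carriers, against 0.367% of all genes, and 0 also with RLE size factors or without the filter on low counts. At an unadjusted p under 0.05 there were 15, or 30%, against 19.9% of all genes. The 5 smallest belonged to SLC2A12 (unadjusted p = 0.00759, adjusted p = 0.134 in edgeR), SLC2A6 (0.00848, adjusted p = 0.139), SLC5A10 (0.0117, adjusted p = 0.157), SLC7A3 (0.015, adjusted p = 0.169) and SLC6A6 (0.0164, adjusted p = 0.174). In SLC2A6 and SLC5A10 C29 was highest in both fractions, in SLC7A3 C30 was, and in SLC2A12 and SLC6A6 C27 was.

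Several genes have more than 1 annotated transcript (20 of the 66), among them SLC43A3 with 4. Its transcript ENSGALT00000032673 averaged 18.4 ± 3.94 TPM in ALDH+ and 35.3 ± 12.7 TPM in ALDH- libraries (SD, n = 3 each). Transcript ENSGALT00000092306 averaged 12.5 ± 1.07 TPM in ALDH+ and 10.7 ± 0.338 TPM in ALDH- libraries. TPM was on the whole higher in ALDH+ libraries. In the authors' deposited table the first has a log2 change of -1.4 (SE 0.51, false discovery rate 0.0534) and the second one of -0.2 (SE 0.29, false discovery rate 0.769). ENSGALT00000101518 has one of -1.5 (SE 0.76, false discovery rate 0.236) and ENSGALT00000107949 one of -1.9 (SE 1.99, false discovery rate 0.674). None of the 4 passes. The difference between the transcripts was not tested, and reads they share are assigned by estimation. In SLC16A7 each of the 4 transcripts had 1.84 TPM or less in every library, and no one transcript held all counts. None of its transcripts passes in the authors' deposited table (false discovery rates from 0.181 to 0.932). There ENSGALT00000093092 has a log2 change of 0.7 (SE 2.86), and the others have -3.5, -3.5 and -2.1.

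**Figure D5:**
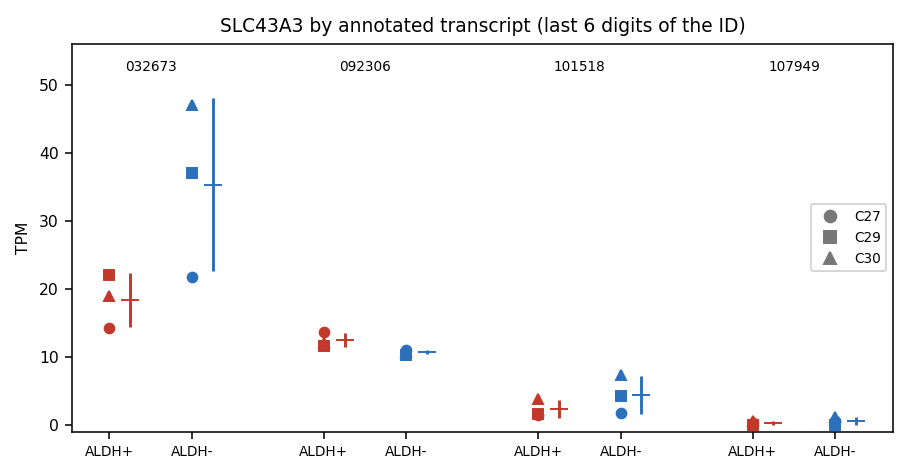
TPM of the 4 annotated SLC43A3 transcripts in each library, ALDH+ (red) left of ALDH- (blue), symbols by line, with mean and SD beside them. Transcript ENSGALT00000032673 averages 18.4 TPM in ALDH+ and 35.3 TPM in ALDH-, and ENSGALT00000092306 averages 12.5 and 10.7 TPM. The difference between transcripts was not tested.

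Genes that work beside the carriers were taken from 4 lists. For the counts of calls in them, the shares over all tested genes without the block were 0.835% higher and 5.3% lower. Of 6 tested partner proteins, among them SLC3A1, which is also one of the carriers above, 0 passed in edgeR in either direction. The unadjusted p was under 0.05 for EMB (log2 1.05, adjusted p = 0.186) and the neuroplastin gene NPTN (log2 -0.50, adjusted p = 0.212). BSG stood at 2029, 2085 and 1491 CPM in ALDH+ and 1991, 1691 and 1138 CPM in ALDH- libraries (log2 0.22, adjusted p = 0.731). Of 18 tested glycolysis and lactate genes 0 passed, with a list median of -0.14. The lactate dehydrogenase gene LDHA had 2048, 2084 and 1946 CPM in ALDH+ and 2925, 3431 and 4435 CPM in ALDH- libraries, without overlap (log2 -0.83, SE 0.29, adjusted p = 0.151), HK2 had a log2 change of -0.70 (adjusted p = 0.338) and PDK4 one of -1.73 (adjusted p = 0.322).

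Of 19 tested amino acid enzymes 0 rose and 2 fell (0.835% and 5.3% of all genes), with a list median of 0.03. Argininosuccinate synthase (ASS1), which makes the precursor of arginine from citrulline, had 49.9, 56.3 and 18.4 CPM in ALDH+ and 269.4, 196.0 and 300.8 CPM in ALDH- libraries, and fell by 2.62 (SE 0.43, adjusted p = 0.0104 in edgeR). Every ALDH+ library lay far below every ALDH- library. The kynurenine pathway gene KYNU fell by 2.79 (SE 0.58, adjusted p = 0.0279), at levels under 3 CPM. The glutathione synthesis gene GCLC (log2 -0.95, adjusted p = 0.163) fell with the block (adjusted p = 0.0284), and PSPH, of serine synthesis, passed in neither fit (log2 -0.83, adjusted p = 0.241).

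The list for amino acid and glucose sensing also holds stress and hypoxia genes. Of its 27 tested genes 2 rose (EIF2AK3 and EPAS1) and 1 fell (MLXIPL), against 0.835% and 5.3% of all genes, with a list median of -0.02. MLXIPL (ChREBP), the glucose-sensing transcription factor, had 3.86, 2.85 and 2.18 CPM in ALDH+ and 35.5, 65.7 and 197.6 CPM in ALDH- libraries, and fell by 5.07 (SE 0.69, adjusted p = 0.00414 in edgeR). EIF2AK3 (PERK), a kinase of the unfolded protein response that leads to ATF4, had 47.1, 45.8 and 54.0 CPM in ALDH+ and 29.2, 22.2 and 18.4 CPM in ALDH- libraries, and rose by 1.07 (SE 0.25, adjusted p = 0.0466). The hypoxia factor gene EPAS1 rose by 2.94 (adjusted p = 0.0346), and ATF3 did not pass (log2 1.24, adjusted p = 0.106). In the line-blocked fit ARRDC4, an arrestin gene induced by glucose, also rose (log2 1.36, adjusted p = 0.0256). ASS1, KYNU and MLXIPL fell beside the macrophage list (18 of 19 tested lower), and the part of leukocyte RNA in them was not tested.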

How the data were processed

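Bulk RNA-seq of 6 libraries (ALDH+ and ALDH- sorted cells of lines C27, C29 and C30) was re-analysed from 28756 transcripts. The submitters' processing notes name FastQC, Trimmomatic, HISAT2, kallisto, DESeq2 and the build GRCg6a, without roles. The deposited estimated counts are unscaled, per the values in the files, and the deposited TPM values are per transcript, per the file headers. The authors' deposited comparison table holds scaled counts (a signal), a fold ratio, its log2 value with its error, a test statistic and a false positive estimate (both entered as score), and p-values with FDR, per the file headers.

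Counts were summed per gene and rounded, and genes kept by filterByExpr (minimum count 10, minimum total 15) were tested with edgeR 4.0.16 (R 4.3.3) quasi-likelihood tests on fraction alone, two-sided, with TMM factors and Benjamini-Hochberg adjustment over 12811 genes. The code was run on simulated counts with known large changes, no line effect and a dispersion below that of these data (0.152 without the block). That run does not give the power for changes of the size seen here. Within-line differences used log2(CPM + 0.1). The same line gave both libraries of a pair, and their deviations from group means correlated (r = 0.661 for C27, 0.165 for C29 and 0.487 for C30), so line-blocked values stand beside results that they change. Alternatives were other scalings, no filter, DESeq2 1.42.0, limma 3.58.1 (voom, and log2(TPM + pseudocount) for pseudocounts of 1 and 0.1) and leaving out libraries. With 3 against 3 libraries an exact permutation test of one gene cannot go below p = 0.1, so none was used. Depth limits genes of few counts, and estimated counts can split shared reads between paralogs or overlapping genes.

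Named carriers were those called, the 8 of lowest blocked p in each direction, the 10 of highest TPM, the 5 of lowest line p and SLC3 genes, plus up to 4 genes per pathway list of lowest p. Further genes are marked as chosen after their values were seen, apart from SLC5A1, SLC5A6 and SLC38A1, which lie outside the rule and carry no mark. The carriers, lists and rules were chosen with earlier results of these data known. Symbols were matched to RefSeq names (79 of 79), IDs to none, and no coordinates or sequences are given. A carrier and a glycolysis gene that the rule selects are not reported here.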

Additional observations from a re-analysis of the deposited data

How the results depend on the processing

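The count of carriers higher and lower in ALDH+ was 0 and 2 in edgeR without the block. The replicate block (line) gave 2 and 5. Shares of all tested genes called in the same direction stand in brackets. Without the block, upper quartile factors (5.0%) and library size only (4.88%) left 1 lower each, and fibroblast scaling gave 14 lower (42.7%). DESeq2, on 66 carriers, gave 1 higher (4.65%) and 4 lower (7.51%). On 43 carriers limma gave 0 lower on log2(TPM + 1) or log2(TPM + 0.1) (4.33% each). Leaving out each library gave 0 to 2 lower (3.25 to 5.77%). With the block there were 1 higher (2.44%) and 1 lower (5.48%) without C27, 2 higher (8.04%) and 9 lower (10%) without C29, and 0 higher (3.3%) and 4 lower (6.3%) without C30. With the block and scalings added after seeing the data, RLE factors gave 3 higher (6.74%) and 3 lower (7.1%), upper quartile factors 5 higher (8.32%) and 3 lower (7.03%), and library size only 5 higher (9.91%) and 5 lower (7.24%). Of all calls, 13.6% were higher without the block, 43.8% with it, 38.2% in DESeq2, 34.7% on log2(TPM + 1) and 0.6% with fibroblast scaling.

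The carriers' median log2 change of 0.10 moved to 0.208 (upper quartile factors), 0.264 (library size only) and -0.717 with fibroblast scaling. Over 66 carriers it was 0.033 without the filter and 0.025 in DESeq2. Over 43 carriers it was 0.266 on log2(TPM + 1) and 0.304 on log2(TPM + 0.1). It was -0.035 to 0.139 with each library left out. With the block it was 0.018 without C27, 0.04 without C30, 0.187 (upper quartile factors) and 0.248 (library size only). Over all genes these scalings moved the median to 0.12 (upper quartile), 0.18 (library size) and -0.81 (fibroblast). Glycolysis genes called higher were 1 with the block (5.92% of all genes) and 0 without it (0.835%).

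Of 414 values of 26 carriers chosen by rule, over the single changes of setting, 357 kept direction and side of the threshold, 17 lost the call, 20 gained one and 20 turned sign, in 10 genes, none called in either fit. Blocked fits with another scaling or a line left out are not in that tally. Fibroblast scaling turned SLC16A1 (-0.515), SLC2A1 (-0.401), SLC2A12 (-0.657), SLC2A14 (-0.777), SLC38A10 (-0.129), SLC38A2 (-0.243) and SLC5A10 (-0.005). SLC2A12 turned to -0.051 in limma-voom, SLC3A1 to 0.122 and 0.27 and SLC7A3 to 0.096 and 0.098 on log2(TPM + 1) and log2(TPM + 0.1). With each library left out the log2 change ran from -0.642 to 0.214 for SLC1A6, -0.505 to 0.707 for SLC2A12, -0.172 to 0.3 for SLC2A14 and -0.568 to 0.011 for SLC3A1. The cause of these changes was not tested.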
